A study of Arabidopsis thaliana with 10 samples.

Results

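In dark-grown Arabidopsis, 192 genes had opposite directions with gibberellin and in a mutant with active brassinosteroid signalling, out of 17225 genes whose mean reached 20 normalized reads in all 5 groups and 33518 genes in all. Of these, 95 genes were higher with gibberellic acid (GA3) and lower in the mutant bzr1-1D, and 97 genes were lower with GA3 and higher in bzr1-1D. A gene was taken when its ratio of group means, GA3 over mock, was at least 1.3 in both backgrounds tested while the bzr1-1D over wild-type ratio was at most 0.77, or when both GA3 ratios were at most 0.77 and the bzr1-1D ratio was at least 1.3. A further condition kept the ratio of propiconazole to no propiconazole in wild type above 0.5 and below 4. All 5 group means entered this choice, so the ratios below describe how the genes were selected and carry no test of their own.

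The study sequenced total RNA from tissue labelled hypocotyl, the embryonic stem, in 5 groups of 2 libraries each. All plants were of the Col-0 ecotype, kept in darkness for 4.5 days on 1 µM paclobutrazol (PAC), so every group, controls included, carried this inhibitor of gibberellin synthesis. The wild-type plants formed 4 groups: PAC alone, PAC with 10 µM GA3, PAC with 2 µM propiconazole (PPZ), and PAC with PPZ and 10 µM GA3, with GA3 or a mock solution applied 12 h before the end. The fifth group was mock-treated bzr1-1D on both inhibitors, set against mock-treated wild type on both. PPZ inhibits brassinosteroid synthesis, and bzr1-1D is a dominant point mutation that stabilises the transcription factor BZR1, so the amount of BZR1 transcript cannot check the genotype. Effects of bzr1-1D without PPZ or with GA3 were not analysed here. Whether the repeat libraries came from separate cultures is not stated, so their spread may be technical. The GA3 comparison on PPZ and the bzr1-1D comparison share the same wild-type libraries on PAC and PPZ as their denominator.

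Gibberellins and brassinosteroids both promote elongation of the dark-grown hypocotyl. Gibberellin removes the DELLA proteins, which bind and hold back several growth-promoting transcription factors, BZR1 among them. Brassinosteroid signalling activates BZR1, which raises many growth genes and represses others, including genes of brassinosteroid synthesis. Gibberellin in turn represses genes of its own synthesis. Many genes thus move the same way under both hormones, and the genes described here are those for which GA3 and bzr1-1D went apart.

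The 10 libraries held 7965149 to 16397216 reads recovered on genes. Values are reads divided by the authors' size factor for the library, called normalized reads; they are not corrected for gene length, so levels of different genes are not compared. Where 2 values are given for a group, the deeper library comes first, and where 3 ratios are given for a gene, they are GA3 on PAC, GA3 on PAC and PPZ, and bzr1-1D over wild type. The 2 libraries on PAC alone lay farthest apart, with a standard deviation of the log2 ratio between them of 0.244 over genes whose mean reached 1000, against 0.0889 to 0.162 in the other 4 pairs. The marker sums of other organs also moved between groups. Summed over 9 of 10 seed reserve markers, which leave out CRU3 and include OLEO2, one of the 192 genes, normalized reads were 9283 to 12915 on PAC, 2004 to 2329 on PAC with GA3, 19711 to 22178 on PAC and PPZ, 3779 to 6277 on PAC and PPZ with GA3, and 9718 to 13040 in bzr1-1D. The reads of CRU3, the most abundant of the 10 on PAC and PPZ, could not be resolved per library, and its group means in the same order were 9011, 1316, 17065, 3321 and 14695. Over 7 of 9 photosynthetic cotyledon markers the sums in this order were 51385 to 69788, 36255 to 37093, 60625 to 62345, 43048 to 43234 and 20814 to 23891. Over 16 root markers, none of them among the 192 genes, they were 4087 to 4818, 6763 to 8026, 3885 to 4009, 4089 to 4108 and 5105 to 6141. The root hair markers among them were scarcer and moved otherwise. LRX1 had group means of 22.3, 31.6, 101, 121 and 24.5, and PRP3 26.4, 63.5, 143, 156 and 37.6. EXPA7, EXPA18, RSL4, RHD6 and SHV2 were likewise higher on PAC and PPZ than on PAC, and lower in bzr1-1D than in wild type on PAC and PPZ. Over 5 shoot meristem markers the sums in this order were 771 to 1137, 1115 to 1191, 478 to 495, 635 to 679 and 1067 to 1143. KNAT1 made up most of that sum, with group means of 777, 967, 366, 504 and 969. From wild type on PAC and PPZ to bzr1-1D, STM went from 105 to 129. The scarcer CLV3 and CUC2 went the other way, from 2.59 to 1.42 and from 12.6 to 5.49, so the sum does not stand for every marker. In whole tissue, fewer cells of one kind and less RNA per cell cannot be told apart, and the part of such shifts in the results below was not tested.

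**Figure D1:**
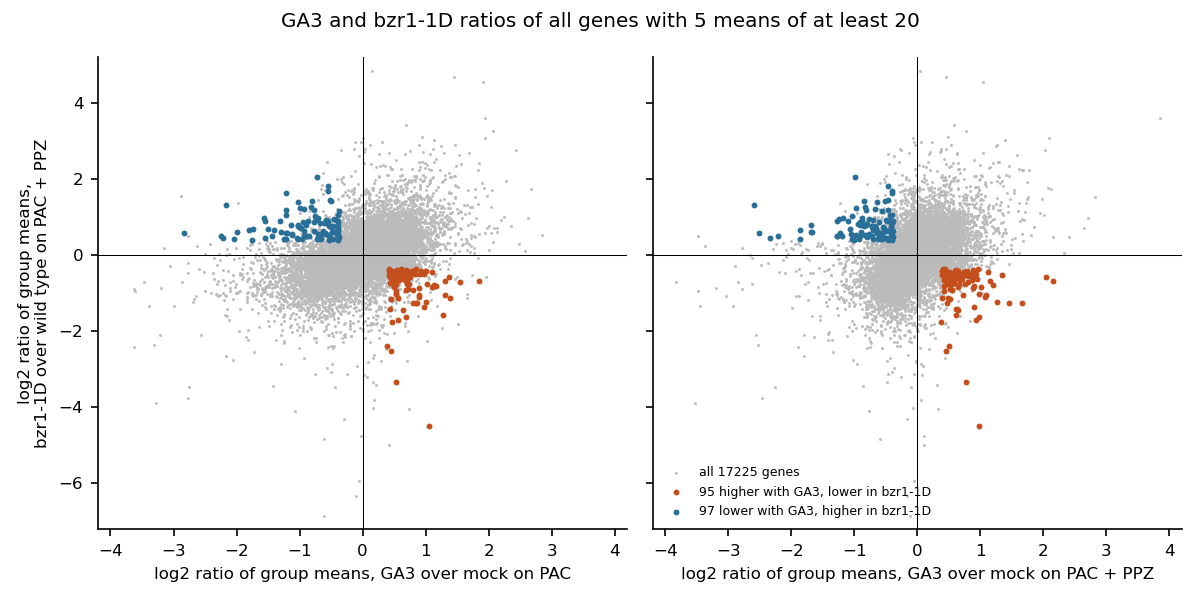
Log2 ratios of group means for all 17225 genes with 5 means of at least 20 (grey). The vertical axes show bzr1-1D over wild type on PAC and PPZ. The horizontal axes show GA3 over mock, on PAC (left) and on PAC and PPZ (right). The 95 genes higher with GA3 and lower in bzr1-1D (orange) fill the lower right corner, and the 97 genes lower with GA3 and higher in bzr1-1D (blue) the upper left corner, as the rule requires.

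Among the 95 genes that were higher with GA3, the median ratio was 1.57 for GA3 on PAC, 1.55 for GA3 on PAC and PPZ, and 0.650 for bzr1-1D. Among the 97 others the medians were 0.586, 0.614 and 1.61. The same medians over all 17225 genes were 1.02, 1.01 and 1.01. Most of the changes were moderate: all 3 ratios were 1.5-fold or more in 22 and 28 genes, and 2-fold or more in 2 genes (CDEF1 and CYP78A5) and 1 gene (AT5G59170).

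In the authors' deposited tables, whose DESeq test was called at an adjusted p under 0.05, GA3 on PAC was called higher for 67 of the 95 genes, where 12.9% of all tested genes and 16.6% of the 17225 with 5 means of at least 20 were called higher. GA3 on PAC and PPZ was called higher for 66 of them (5.97% and 7.99%), and bzr1-1D was called lower for 64 of them (15% and 18.6%). Of the 97 other genes, 59 were called lower with GA3 on PAC (14.3% and 18.6%). When PPZ was present, GA3 was called to lower 54 of them (7.37% and 9.54%), and 70 were called higher in bzr1-1D (14.5% and 18.2%). A call in every table was reached by 50 of the 95 genes, and 0.389% of the 17225 were called so in these directions. It was reached by 31 of the 97, with 0.273% of the 17225 called so in the opposite directions. No table called 15 of the 95 and 5 of the 97, nor 47% of the 17225. Since the rule used these very contrasts, nothing is read from those counts. The single libraries did not overlap between the groups in any of the 3 comparisons for 91 of the 95 genes, where 3.7% of all resolved genes had this order, and for 90 of 96 resolved genes of the other direction, where 2.66% had it. The exceptions were WRKY40, PME5, AT5G65300 and PS1 in the first set, and AT1G19450, ABI3, AT3G07730, CYP94B3, AT3G21020 and AT5G53990 in the second.

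The order of the 5 group means is a description, since the rule used all 5 means. The rule did not directly set bzr1-1D against wild type on PAC alone. It held the ratio of wild type on PAC and PPZ to wild type on PAC above 0.5 and below 4. Both of these means were also denominators of ratios in the rule, so the counts below are shaped by the choice. In the genes higher with GA3, wild type on PAC and PPZ stood above wild type on PAC in 70 of 95 genes (median ratio 1.28), and among all 17225 genes in 8162. bzr1-1D stood below wild type on PAC in 76 of the 95, at a median ratio of 0.805, and among all genes in 9038. The mean was highest on PAC and PPZ with GA3 in 71 of the 95 and on PAC with GA3 in 24. In the genes lower with GA3, PPZ gave no common direction, with 45 of 97 above and 52 below and a median of 0.970. bzr1-1D stood above wild type on PAC in 92 of the 97, at a median of 1.61, and among all genes in 8187.

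**Figure D2:**
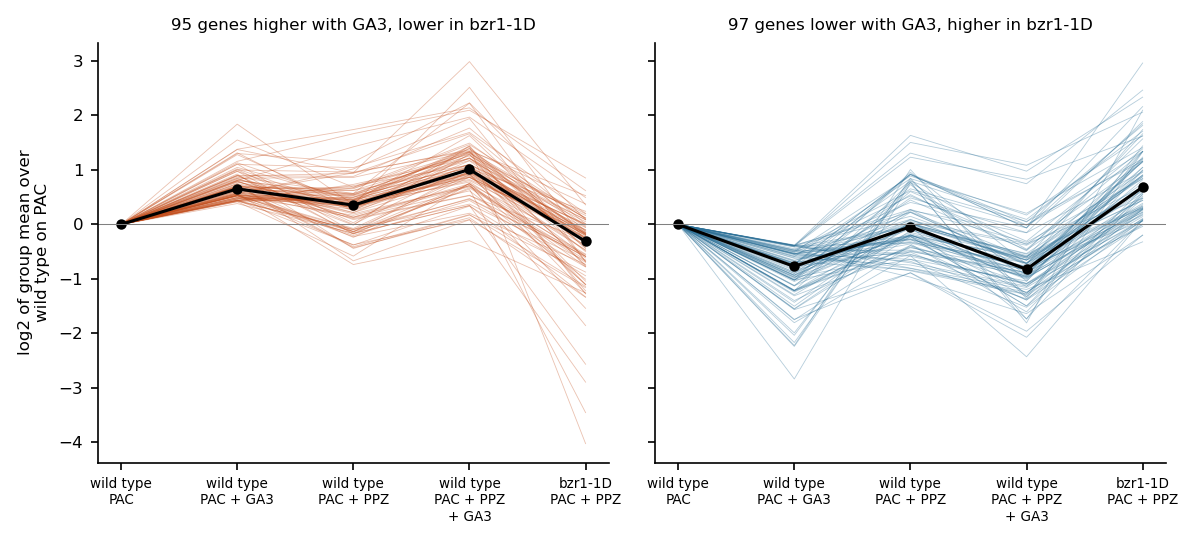
Group means of the 95 genes (left) and 97 genes (right) as log2 ratios to wild type on PAC, 1 line per gene, with the median in black. In the left panel the median line peaks on PAC and PPZ with GA3 and is lowest in bzr1-1D. In the right panel the median of both GA3 groups lies below 0 and that of bzr1-1D is highest.

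By annotation 186 of the 192 genes were protein coding, 3 were pseudogenes, 2 transcribed pseudogenes and 1 a non-coding RNA. In the RefSeq annotation 43 of them overlap another gene, 38 with a partner on the opposite strand; strandedness of the counting is not given in the sources used here, so reads of such pairs cannot be told apart. The genes were scattered: apart from AT1G48670 and AT1G48690, 2 auxin-responsive GH3 family genes with 1 gene between them and both lower with GA3, no 2 genes of the same direction lay within 4 genes of each other.

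Promoter sequence was read from RefSeq assembly TAIR10.1, since the build behind the deposited tables is not given in the sources used here. Windows of 250 bases before to 50 after each annotated start were searched on both strands for the BRRE (CGTGTG or CGTGCG) and the G-box (CACGTG), which BZR1 is known to bind, for the E-box (CANNTG, which contains the G-box), for the auxin response element (TGTCTC) and for the I-box (GGATAA). An E2F-type motif (TTT, then a pair of bases that are each C or G, then CGC) and the RY motif (CATGCA), known from seed genes, were added after the genes had been seen. The BRRE was found in 10 of 95 promoters of genes higher with GA3 and in 7 of 97 of the others, against 8.51% of 17134 promoters searched. The G-box was found in 4 and 11, against 9.06%. The E-box was found in 61 and 63, against 62.3%, the auxin response element in 17 and 13, against 13.4%, and the I-box in 16 and 10, against 16%. The E2F-type motif was found in 7 of the 95 and 0 of the 97, against 1.82%, and the RY motif in 14 and 20, against 8%. These are counts of letters in a window, not of binding sites.

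Before the start, 6 of the genes higher with GA3 held an E2F-type match, and 5 of them are genes of DNA replication or a histone gene. These stretches of 40 bases are shown because those genes had like ratios; they run 5′ to 3′ on the gene's strand, with the match in capitals, which reads in reverse complement where it begins with GCG.
MCM2, chr1:16970174-16970213, plus strand: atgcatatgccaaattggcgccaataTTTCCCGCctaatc
AT3G46320, chr3:17020639-17020678, minus strand: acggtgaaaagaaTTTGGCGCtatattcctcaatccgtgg
AT3G52630, chr3:19513897-19513936, plus strand: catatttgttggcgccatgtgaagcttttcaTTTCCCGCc
RPA70B, chr5:2571894-2571933, plus strand: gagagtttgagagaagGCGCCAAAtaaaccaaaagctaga
RPA70D, chr5:24552858-24552897, minus strand: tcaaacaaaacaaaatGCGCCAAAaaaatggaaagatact
The match ended 6 bases before the annotated start in MCM2, 229 in AT3G46320, 1 in AT3G52630, 39 in RPA70B and 18 in RPA70D. The sixth gene was AT4G16807, whose match ended 4 bases before the start.

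The 250 bases before the start of the brassinosteroid genes DWF4 and BR6OX1 and of the gibberellin gene GA3OX1 held neither a BRRE nor a G-box, which says only that those letters are not in this window. They are shown with their E-box matches in capitals because these 3 genes carry the hormone pathways at issue.
DWF4, chr3:18817406-18817655, minus strand: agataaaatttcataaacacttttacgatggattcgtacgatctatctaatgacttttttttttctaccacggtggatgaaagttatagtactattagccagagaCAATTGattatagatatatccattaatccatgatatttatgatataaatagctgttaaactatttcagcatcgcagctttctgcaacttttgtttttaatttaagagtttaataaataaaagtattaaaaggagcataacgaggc
BR6OX1, chr5:15598090-15598339, minus strand: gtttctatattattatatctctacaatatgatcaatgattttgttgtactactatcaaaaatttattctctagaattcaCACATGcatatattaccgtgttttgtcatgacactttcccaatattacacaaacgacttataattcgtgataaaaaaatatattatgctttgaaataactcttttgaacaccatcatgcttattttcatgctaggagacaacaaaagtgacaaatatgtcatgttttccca
GA3OX1, chr1:5346343-5346592, minus strand: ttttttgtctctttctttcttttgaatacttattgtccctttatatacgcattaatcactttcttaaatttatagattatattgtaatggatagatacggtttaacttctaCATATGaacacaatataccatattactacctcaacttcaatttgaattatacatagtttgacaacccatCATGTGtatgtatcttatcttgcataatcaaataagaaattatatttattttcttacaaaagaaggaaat

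Brassinosteroid synthesis was represented by 2 of the genes higher with GA3 and lower in bzr1-1D. DWF4, the cytochrome P450 of a rate-limiting hydroxylation in brassinosteroid synthesis, gave normalized reads of 751 and 1031 on PAC, 1477 and 1316 on PAC with GA3, 1383 and 1480.3 on PAC and PPZ, 2215 and 2264 on PAC and PPZ with GA3, and 517 and 532 in bzr1-1D. BR6OX1, an oxidase of the last steps, gave normalized reads of 148 and 217 on PAC, 321 and 266 on PAC with GA3, 156 and 153 on PAC and PPZ, 286 and 327 on PAC and PPZ with GA3, and 46.8 and 54 in bzr1-1D. In both genes the 2 bzr1-1D libraries were the lowest of all 10, and both libraries with GA3 lay above both without it in either background. The ratios for DWF4 were 1.57 and 1.56 with GA3 and 0.366 in bzr1-1D, and those for BR6OX1 were 1.61, 1.98 and 0.326. As log2 changes from limma-voom with standard errors, bzr1-1D stood at -1.45 ± 0.08 for DWF4 and -1.62 ± 0.17 for BR6OX1.

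These were 2 of the 10 brassinosteroid synthesis genes measured, and the rest of the pathway divided. BR6OX2 and CYP90D1 had bzr1-1D ratios of 0.0900 and 0.261, but their GA3 ratios were 0.735 and 0.872 without PPZ and 0.932 and 0.811 with it. CPD, another P450 of the pathway, came close, with 1.33 and 1.15 with GA3 and 0.697 in bzr1-1D. Among the 10 genes the authors' deposited tables called 5 higher and 1 lower with GA3 on PAC, 2 higher and 0 lower with GA3 on PAC and PPZ, and 2 higher and 5 lower in bzr1-1D. Of the 17225 genes, 16.6% and 18.6%, 7.99% and 9.54%, and 18.2% and 18.6% were called so. DWF1, DWF5, DET2 and ROT3 had bzr1-1D ratios of 0.913 to 1.22, and STE1 had 1.29, beside 1.32 and 1.22 with GA3.

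DNA replication, chromatin and cell division formed the most numerous group that could be named. By role, assigned after the genes were known, 18 of the 95 genes belonged here. No such group was formed among the 97, where LGO, an inhibitor of the cell cycle, was given a role of its own. The 18 genes were 1.34- to 1.72-fold higher with GA3 on PAC, 1.33- to 1.93-fold higher with GA3 on PAC and PPZ, and at 0.457 to 0.768 of wild type in bzr1-1D. The authors' deposited tables called 12 of them higher, 13 higher and 11 lower, in that order. Of the 17225 genes, 16.6%, 7.99% and 18.6% were called so. All 3 tables called 9 of the 18, and none called 3, HTR12 and RNR2B among them. WEE1, RPA70B, BARD1 and DUT1 were not called lower in bzr1-1D. These counts and ranges follow from the rule and the later choice of roles. The PPZ over no-PPZ ratios of the 18 ran from 1.08 to 1.66, all above 1, as in 70 of the 95 and 8162 of the 17225 genes. The rule used both of these means, so this is not a separate trait.

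The replication machinery was represented by MCM2, a subunit of the helicase that opens origins, with normalized reads of 254 and 263 on PAC, 351 and 374 on PAC with GA3, 349 and 357 on PAC and PPZ, 512 and 486 on PAC and PPZ with GA3, and 263 and 259 in bzr1-1D. RPA70D, a large subunit of the replication protein A that coats single-stranded DNA, gave normalized reads of 168 and 146 on PAC, 225 and 265 on PAC with GA3, 211 and 248 on PAC and PPZ, 339.98 and 371 on PAC and PPZ with GA3, and 167 and 168 in bzr1-1D. In both genes bzr1-1D was at the level of wild type on PAC, with ratios to it of 1.01 and 1.06, and stood below wild type on PAC and PPZ. RPA70B, a second large subunit, had ratios of 1.53, 1.33 and 0.768. AT3G52630, annotated as a nucleic acid-binding protein of the same fold family, had 1.35, 1.39 and 0.674. The nucleotide supply genes among the 95 were DUT1, a dUTPase, at 1.34, 1.52 and 0.752, and RNR2B, a transcribed pseudogene of a ribonucleotide reductase subunit, at 1.72, 1.57 and 0.753. Other subunits of that enzyme were not among them, with ratios of 1.38, 1.65 and 0.847 for TSO2, 0.916, 1.1 and 0.799 for RNR1, and 0.471, 0.588 and 0.668 for RNR2A.

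Of the histone genes, AT5G59690, which encodes histone H4, had the lowest bzr1-1D ratio of the 18. Its libraries gave normalized reads of 894 and 750.03 on PAC, 1308 and 1126 on PAC with GA3, 891 and 900.1 on PAC and PPZ, 1343 and 1177 on PAC and PPZ with GA3, and 385 and 434 in bzr1-1D. Both bzr1-1D libraries lay far below every wild-type library, with a ratio of 0.457 to wild type on PAC and PPZ and 0.498 to wild type on PAC. AT3G46320, a second H4 gene, stood at 0.671, HTA13, which encodes an H2A, at 0.631, HTA11, which encodes the variant H2A.Z, at 0.696, and HTR12, the centromeric histone H3, at 0.611. Their GA3 ratios were 1.47 and 1.56, 1.59 and 1.35, 1.55 and 1.48, and 1.43 and 1.46, in the same order. Listed histone genes outside the rule with means of at least 20 had bzr1-1D ratios from 0.733 for HTA7 to 1.51 for HTA12. HIS4, HTA6, HTA10 and HTB4 were higher with GA3 in both backgrounds, but had bzr1-1D ratios of 0.937, 0.921, 1.02 and 1.14. The authors' deposited table called HTA12 and H2AXA higher and HTA7 lower in bzr1-1D. H4 genes are near-identical copies, and reads aligned to several places were set apart in the deposited tables, so the H4 values are uncertain.

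WEE1, the kinase that holds cyclin-dependent kinases in check under replication stress, gave normalized reads of 26.1 and 35.3 on PAC, 45 and 54.7 on PAC with GA3, 35 and 48.7 on PAC and PPZ, 82.6 and 79 on PAC and PPZ with GA3, and 28.8 and 25.6 in bzr1-1D. These are low counts. Both bzr1-1D libraries lay below both wild-type libraries on PAC and PPZ, and both libraries with GA3 above those without. That order was found in 91 of the 95 genes and follows in part from the rule. The authors' DESeq tables called WEE1 with GA3 on PAC and PPZ, at adjusted p of 0.00774. They did not call it with GA3 on PAC or in bzr1-1D, at 0.0989 and 0.158. VIM1, which maintains CG methylation, had ratios of 1.52, 1.54 and 0.749, and BARD1, a DNA repair protein, 1.45, 1.53 and 0.759. Genes of mitosis and its control were WYR, the INCENP homologue of the chromosomal passenger complex, at 1.44, 1.38 and 0.676, ATN, also known as TANGLED1, which marks the division plane, at 1.43, 1.85 and 0.661, and UVI4, an inhibitor of the anaphase-promoting complex, at 1.39, 1.53 and 0.679. ABAP1, which limits DNA replication in leaves, had 1.5, 1.49 and 0.685. Mitosis genes outside the rule did not share a direction in bzr1-1D. CYCB2;3, CYCB1;4, MAD2 and CDKB2;1 were higher with GA3 in both backgrounds and also in bzr1-1D, with bzr1-1D ratios of 4.09, 1.79, 1.59 and 1.48. The authors' deposited table called all of these higher in bzr1-1D, and CYCB2;2 as well, at 1.58. AUR3, CYCB1;1 and HIK had bzr1-1D ratios of 0.591, 0.752 and 0.849, but none of them was called lower. AUR1, BUBR1 and PLE, at 1.19, 1.46 and 1.23, and AUR2, at 0.929, were not called either.

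A wider list of replication, chromatin and mitosis genes, drawn up after these genes were known, held 76 genes with all 5 means of at least 20, 13 of them among the 95. The rule fixed the side of those 13, so the counts are given for the 63 others. With GA3 on PAC 57 of the 63 had a ratio above 1, where 9240 of all 17225 genes had, and with GA3 on PAC and PPZ 59, where 9161 had. In bzr1-1D 43 of the 63 were below 1, where 8416 of all genes were. The medians over the 63 were 1.32, 1.36 and 0.856, beside 1.02, 1.01 and 1.01 over all genes. The authors' deposited tables called 29 of them higher and 2 lower, 33 higher and 1 lower, and 3 higher and 13 lower, in that order. Of the 17225 genes, 16.6% were called higher and 18.6% lower, 7.99% and 9.54%, and 18.2% and 18.6%. The lower calls of the 63 in bzr1-1D were thus near the share of all genes. Wild type on PAC and PPZ stood above wild type on PAC for 50 of the 63 and for 8162 of all genes.

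The general cell cycle list held 68 genes with means of at least 20, of which WEE1, HTA13 and HTA11 were among the 95 and LGO among the 97. Its median ratios were 1.2 and 1.18 with GA3 and 1.01 in bzr1-1D. The authors' deposited tables called 21 of the 68 higher and 6 lower with GA3 on PAC. On PAC and PPZ 21 were called higher and 2 lower with GA3, and 12 higher and 8 lower in bzr1-1D. The shares of all 17225 genes called are those given beside the 63.

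**Figure D3:**
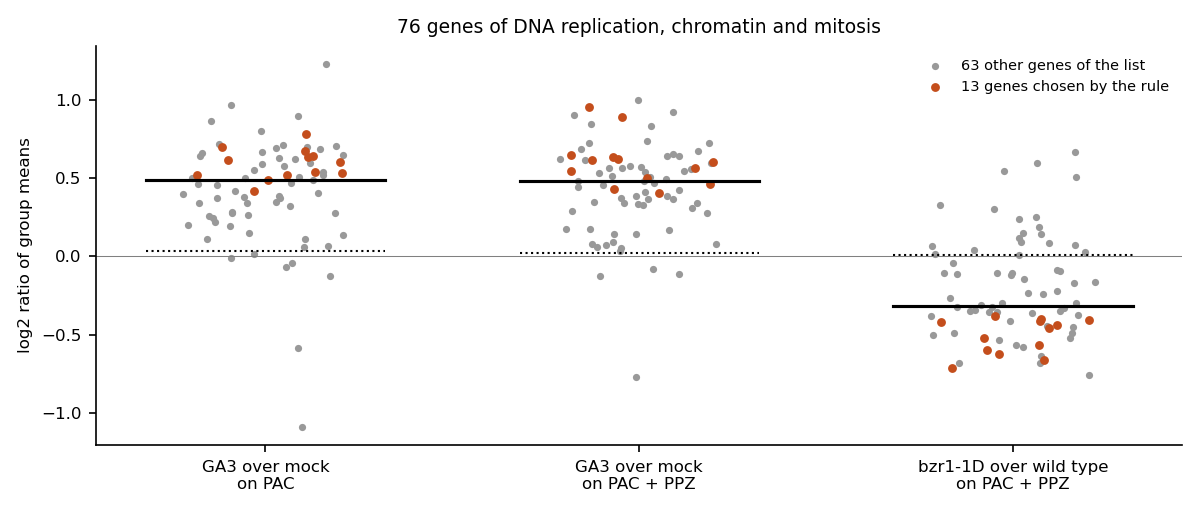
Log2 ratios of group means for 76 genes of DNA replication, chromatin and mitosis in the 3 comparisons, 1 point per gene, with horizontal jitter. The 13 genes chosen by the rule are orange, the solid line is the median of the 76 and the dotted line the median of all 17225 genes. Of the 63 genes outside the rule, 57 and 59 lie above 0 with GA3 and 43 below 0 in bzr1-1D.

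An inhibitor of the cell cycle was among the genes lower with GA3. LGO, a SIAMESE-related inhibitor of cyclin-dependent kinases that promotes endoreduplication, gave normalized reads of 609.8 and 641 on PAC, 313 and 303 on PAC with GA3, 399.8 and 401 on PAC and PPZ, 239 and 245 on PAC and PPZ with GA3, and 579 and 771 in bzr1-1D. All 4 libraries with GA3 were below all others and both bzr1-1D libraries were above both wild-type libraries on PAC and PPZ. Its ratios were 0.493, 0.605 and 1.68, and it overlaps an annotated gene on the opposite strand. SIM, the other family member with means of at least 20, had 0.885, 0.982 and 1.1.

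Organ growth genes were found among those higher with GA3. CYP78A5, also called KLUH, a cytochrome P450 that promotes organ growth, gave normalized reads of 302 and 247 on PAC, 582 and 519 on PAC with GA3, 287 and 273 on PAC and PPZ, 631 and 712 on PAC and PPZ with GA3, and 125 and 111 in bzr1-1D. The 4 GA3 libraries were the highest and the 2 bzr1-1D libraries the lowest of the 10, while PPZ made little difference, with a ratio of 1.02. CYP78A6, a relative that promotes seed growth, had 1.73, 1.53 and 0.702. AT3G53250, annotated in the SAUR family of small auxin-responsive genes, had the largest GA3 ratios of the 95. It gave normalized reads of 36.9 and 28.2 on PAC, 129 and 104 on PAC with GA3, 31.5 and 52.3 on PAC and PPZ, 177 and 196 on PAC and PPZ with GA3, and 28.8 and 23.7 in bzr1-1D, with ratios of 3.58, 4.45 and 0.626. The authors' deposited table did not call AT3G53250 lower in bzr1-1D. The SAUR list held 24 genes with means of at least 20, with a median bzr1-1D ratio of 1.26. Of these, 11 were called higher and 3 lower in bzr1-1D, as were 18.2% and 18.6% of the 17225 genes.

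Cell wall genes of this direction were EXPA15, an expansin that loosens walls, PME5, a pectin methylesterase, BGAL8, a beta-galactosidase, and LAC8, a laccase. Their GA3 ratios ranged from 1.48 to 1.68 on PAC and from 1.42 to 1.69 on PAC and PPZ, and their bzr1-1D ratios from 0.647 to 0.743. In PME5 the libraries of bzr1-1D and of wild type on PAC and PPZ overlapped. Group means of EXPA15 were 123 on PAC, 194 with GA3, 159 on PAC and PPZ, 226 with GA3 and 103 in bzr1-1D.

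By role, 4 of the 95 genes were assigned to the cuticle and surface lipids. For ARAB-1 this rests on its annotated family alone. The assignment was uneven, since LTP6 was placed here and LTP2 of the 97 in a lipid transfer family. CDEF1, a GDSL esterase that degrades cutin, headed the 95 genes by the smallest of its 3 log2 ratios, with normalized reads of 255 and 314 on PAC, 601 and 801 on PAC with GA3, 528 and 731 on PAC and PPZ, 1237 and 1435 on PAC and PPZ with GA3, and 293 and 311 in bzr1-1D. Its libraries with GA3 lay above those without in each background, and bzr1-1D was at the level of wild type on PAC. ARAB-1, another GDSL-type hydrolase, was lowest in bzr1-1D among the 4, with a ratio of 0.0999 beside GA3 ratios of 1.44 and 1.72. KCS19, which elongates very-long-chain fatty acids, had 1.45, 1.64 and 0.677, and the lipid transfer protein gene LTP6 had 1.35, 1.54 and 0.374. The wider wax, cutin and very-long-chain fatty acid list held 53 genes with means of at least 20, with KCS19 and LTP6 among the 95 and LTP2 among the 97. Its medians were 1.18, 1.19 and 1.15, and the authors' deposited table called 23 of its genes higher and 12 lower in bzr1-1D. Of the 17225 genes, 18.2% and 18.6% were called so. MYB16, a transcription factor that promotes cuticle formation, had 1.61, 1.46 and 0.532.

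**Figure D4:**
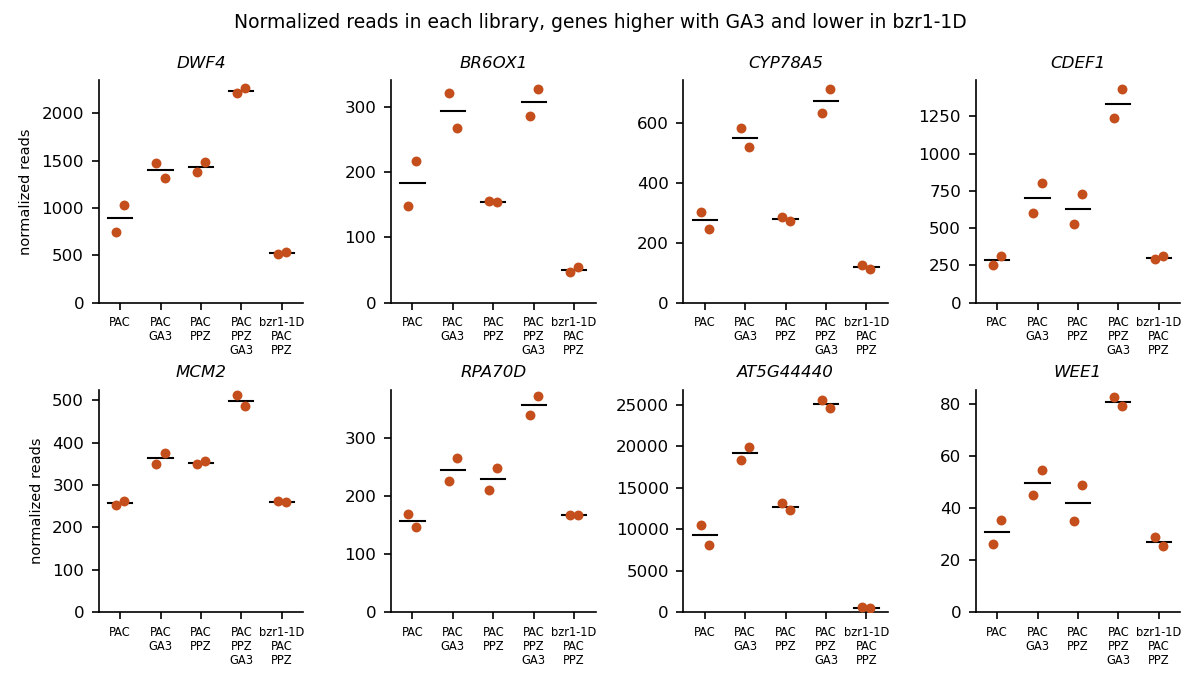
Normalized reads in each library for 8 genes higher with GA3 and lower in bzr1-1D. Points are libraries, with the deeper one on the left, and bars are the group means deposited by the authors. In each panel both bzr1-1D points lie below both points of wild type on PAC and PPZ.

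The largest difference in bzr1-1D was in AT5G44440, a FAD-binding berberine family gene. Its libraries gave normalized reads of 10491 and 8076 on PAC, 18402 and 19956 on PAC with GA3, 13147 and 12361 on PAC and PPZ, 25583 and 24601 on PAC and PPZ with GA3, and 615 and 527 in bzr1-1D, so both bzr1-1D libraries were far below every wild-type library. The ratio was 0.0448 in bzr1-1D and 2.07 and 1.97 with GA3. AT2G34810 and AT1G30720 of the same family had bzr1-1D ratios of 0.595 and 0.569.

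Of the remaining leading genes, 3 members of the early nodulin-like family, membrane-anchored proteins related to copper-binding phytocyanins, had like ratios. ENODL13 gave normalized reads of 22.5 and 37.1 on PAC, 53.2 and 57.4 on PAC with GA3, 47.7 and 62 on PAC and PPZ, 96.9 and 106 on PAC and PPZ with GA3, and 31.5 and 28.4 in bzr1-1D. ENODL14 had ratios of 1.71, 1.88 and 0.726, and ENODL15 had 1.57, 1.67 and 0.736. ANNAT4, an annexin that binds membranes in the presence of calcium, gave normalized reads of 483 and 609 on PAC, 1663 and 1534 on PAC with GA3, 869 and 883 on PAC and PPZ, 1456 and 1616 on PAC and PPZ with GA3, and 507 and 562 in bzr1-1D. ATLP-1, annotated as a thaumatin-like protein, gave normalized reads of 105 and 84.7 on PAC, 175 and 176 on PAC with GA3, 179.9 and 184 on PAC and PPZ, 312 and 290.2 on PAC and PPZ with GA3, and 81 and 93.7 in bzr1-1D. In both genes bzr1-1D was close to wild type on PAC, with ratios of 0.979 and 0.919.

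Others among the first 15 have only an annotated family. AT5G22580, with a stress-responsive A/B barrel domain, gave normalized reads of 382 and 591 on PAC, 958 and 816 on PAC with GA3, 670.1 and 772 on PAC and PPZ, 2132 and 2421 on PAC and PPZ with GA3, and 275 and 330.4 in bzr1-1D. AT1G20790, an F-box gene, gave normalized reads of 255 and 194 on PAC, 426 and 458 on PAC with GA3, 179 and 218 on PAC and PPZ, 365 and 375 on PAC and PPZ with GA3, and 71.1 and 83.3 in bzr1-1D. The first responded more to GA3 on PPZ than on PAC, with ratios of 3.16 and 1.82, and in the second the bzr1-1D libraries were the lowest of all. AT4G29030, a putative membrane lipoprotein, gave normalized reads of 164 and 150.005 on PAC, 275 and 272 on PAC with GA3, 159 and 151 on PAC and PPZ, 420.2 and 435 on PAC and PPZ with GA3, and 72 and 57.7 in bzr1-1D. AT3G06840, uncharacterized, gave normalized reads of 176 and 129 on PAC, 289 and 279 on PAC with GA3, 169 and 136 on PAC and PPZ, 291 and 350.5 on PAC and PPZ with GA3, and 76.5 and 65.3 in bzr1-1D. In both, bzr1-1D stood below every wild-type library, at 0.413 and 0.466 of the mean on PAC.

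AT1G52000, of the mannose-binding lectin family, gave normalized reads of 48.6 and 67.1 on PAC, 136 and 118 on PAC with GA3, 69.9 and 85 on PAC and PPZ, 171 and 187 on PAC and PPZ with GA3, and 47.7 and 41.6 in bzr1-1D. AT2G27402, annotated as a plastid transcriptionally active protein, gave normalized reads of 46.8 and 68.8 on PAC, 149.7 and 138 on PAC with GA3, 71.6 and 65.6 on PAC and PPZ, 147 and 157 on PAC and PPZ with GA3, and 44.1 and 41.6 in bzr1-1D. Their GA3 ratios were all above 2, with bzr1-1D ratios of 0.577 and 0.625. AT5G50740, of the heavy metal transport and detoxification family, gave normalized reads of 45 and 47.6 on PAC, 64.3 and 87.4 on PAC with GA3, 66.5 and 70.9 on PAC and PPZ, 114 and 118 on PAC and PPZ with GA3, and 51.3 and 30.3 in bzr1-1D. Its 2 bzr1-1D libraries differed from each other and were both below wild type on PAC and PPZ.

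By role, 10 of the 95 genes were transcription factors, 6 were receptor-like kinases, other kinases or kinase regulators and 3 were membrane transporters. HB31, a zinc finger homeodomain factor, had 1.41, 1.87 and 0.567, and MYB55 1.4, 1.83 and 0.637. TCP3, of the family that limits leaf cell proliferation, had 1.45, 1.4 and 0.588; an annotated gene on the opposite strand overlaps it. WRKY40, a defence regulator, rested on 1 library: its reads were 315 and 59.3 on PAC and PPZ with GA3, and 54.6 and 36.3 without. The transporters OCT6, ABCG30 and ABCG19 were among the 50 of the 95 genes called in all 3 tables, with bzr1-1D ratios of 0.332, 0.525 and 0.76. The other 39 of the 95 genes were of other or unknown role.

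Among the genes lower with GA3 and higher in bzr1-1D, gibberellin synthesis was represented by 1 gene. GA3OX1, the enzyme of the last step to bioactive gibberellin, gave normalized reads of 1337 and 1324 on PAC, 415 and 347 on PAC with GA3, 906 and 881 on PAC and PPZ, 242 and 252 on PAC and PPZ with GA3, and 1323 and 1494 in bzr1-1D. The 4 libraries with GA3 lay far below the others, and bzr1-1D was above wild type on PAC and PPZ but level with wild type on PAC. The ratios were 0.286 and 0.276 with GA3, 1.58 in bzr1-1D and 1.06 for bzr1-1D over wild type on PAC. On the log2 scale with standard errors, the bzr1-1D change was 0.65 ± 0.08.

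Of the gibberellin synthesis genes on the list, 7 had all 5 means of at least 20, and the authors' deposited tables called 4 of these lower and 1 higher with GA3 in either background. GA20OX2, which acts one step earlier, had ratios of 0.146, 0.0901 and 1.42, and stood outside the set only because its PPZ ratio was 0.408. GA20OX3 had 0.0448, 0.0316 and 1.59 and was under the minimum level with GA3. GA20OX1 had 1.21, 0.187 and 2.01 and was under that level with GA3 on PAC and PPZ. In bzr1-1D the authors' DESeq table did not call GA20OX2 or GA20OX3 higher, at adjusted p of 0.498 and 0.0782. It called GA20OX1, at 0.0174. The earlier enzymes KAO2 and GA3 (ent-kaurene oxidase) were also lower with GA3, at 0.593 and 0.754, and 0.518 and 0.615, but their bzr1-1D ratios were 0.937 and 0.943.

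Other hormone genes of this direction were few. XERICO, a RING-type protein that raises abscisic acid levels and is known as a DELLA target, gave normalized reads of 1893 and 2451 on PAC, 696 and 603 on PAC with GA3, 1195 and 1156 on PAC and PPZ, 554 and 562 on PAC and PPZ with GA3, and 1754 and 2038 in bzr1-1D. Its GA3 libraries were all below its mock libraries, and bzr1-1D lay above wild type on PAC and PPZ, with ratios of 0.299, 0.475 and 1.61. LOG5, which activates cytokinins, had 0.601, 0.614 and 1.89. The neighbouring GH3 family genes AT1G48670 and AT1G48690 had bzr1-1D ratios of 2.68 and 2.27. For CYP94B3, which inactivates jasmonoyl-isoleucine, the libraries with and without GA3 on PAC overlapped, and its ratios were 0.76, 0.585 and 1.43.

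Transport held 11 of the 97 genes, as many as the transcription factors. Of the 11, 5 were called in all 3 tables, as were 31 of the 97 and 0.273% of the 17225. AT5G61520, a sugar transporter of the major facilitator family, gave normalized reads of 636 and 545 on PAC, 192 and 210.4 on PAC with GA3, 531 and 478 on PAC and PPZ, 214 and 204 on PAC and PPZ with GA3, and 908 and 957 in bzr1-1D. PTR3, a peptide transporter, gave normalized reads of 204 and 199 on PAC, 112 and 116 on PAC with GA3, 202 and 177 on PAC and PPZ, 109 and 105 on PAC and PPZ with GA3, and 455 and 445 in bzr1-1D. GPT2, which exchanges glucose 6-phosphate and phosphate across the plastid envelope, gave normalized reads of 235 and 296 on PAC, 111 and 179 on PAC with GA3, 527 and 484 on PAC and PPZ, 299 and 249 on PAC and PPZ with GA3, and 885 and 989 in bzr1-1D. In all 3 genes the bzr1-1D libraries were the highest of the 10 and each GA3 pair lay below its mock pair, with bzr1-1D ratios of 1.85, 2.37 and 1.85. HAK5, the high-affinity potassium transporter of roots, gave normalized reads of 78.4 and 155 on PAC, 45 and 69.7 on PAC with GA3, 198 and 256 on PAC and PPZ, 72.3 and 68.6 on PAC and PPZ with GA3, and 372 and 409 in bzr1-1D. INT2, an inositol transporter, gave normalized reads of 60.3 and 74.1 on PAC, 45 and 35.5 on PAC with GA3, 58.8 and 46.1 on PAC and PPZ, 28.6 and 15.6 on PAC and PPZ with GA3, and 95.4 and 108 in bzr1-1D. The remaining 6 were NRT1.8 for nitrate, AST56 for sulfate, ZIP11 for zinc, UMAMIT6 for amino acids, ABCG22 and AT1G19450, with bzr1-1D ratios of 1.67, 1.63, 1.41, 1.56, 1.41 and 1.71.

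A few proline-rich wall protein genes reached some of the largest ratios, although their wider list had medians above 1 with GA3. AT5G59170, an extensin-like gene and the only one with all 3 ratios above 2-fold in this direction, gave normalized reads of 73.9 and 113 on PAC, 15.6 and 26 on PAC with GA3, 162 and 159 on PAC and PPZ, 32.6 and 20.8 on PAC and PPZ with GA3, and 344 and 455 in bzr1-1D. Its bzr1-1D libraries were the highest by a wide margin and its GA3 libraries the lowest 4. EPR1, an extensin-like gene known from the seed endosperm, gave normalized reads of 917 and 1722 on PAC, 505 and 794 on PAC with GA3, 1882 and 1818 on PAC and PPZ, 1072 and 1306 on PAC and PPZ with GA3, and 4015 and 5754 in bzr1-1D, with ratios of 0.492, 0.643 and 2.64. The glycine-rich protein gene AT5G35660 had 0.252, 0.313 and 1.53, and AT2G26440, of the pectin methylesterase and inhibitor family, had 0.523, 0.53 and 1.42. The libraries of wild type on PAC were uneven for EPR1 and AT5G35660, with 917 and 1722, and 367 and 888. The wider list of extensins and arabinogalactan proteins held no gene chosen by the rule. Its 53 genes with means of at least 20 had median ratios of 1.57, 1.28 and 1.66. On PAC the authors' deposited table called 34 of them higher and 2 lower with GA3. On PAC and PPZ 22 were called higher and 1 lower with GA3, and 30 higher and 5 lower in bzr1-1D. Of the 17225 genes, 16.6% and 18.6%, 7.99% and 9.54%, and 18.2% and 18.6% were called so.

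**Figure D5:**
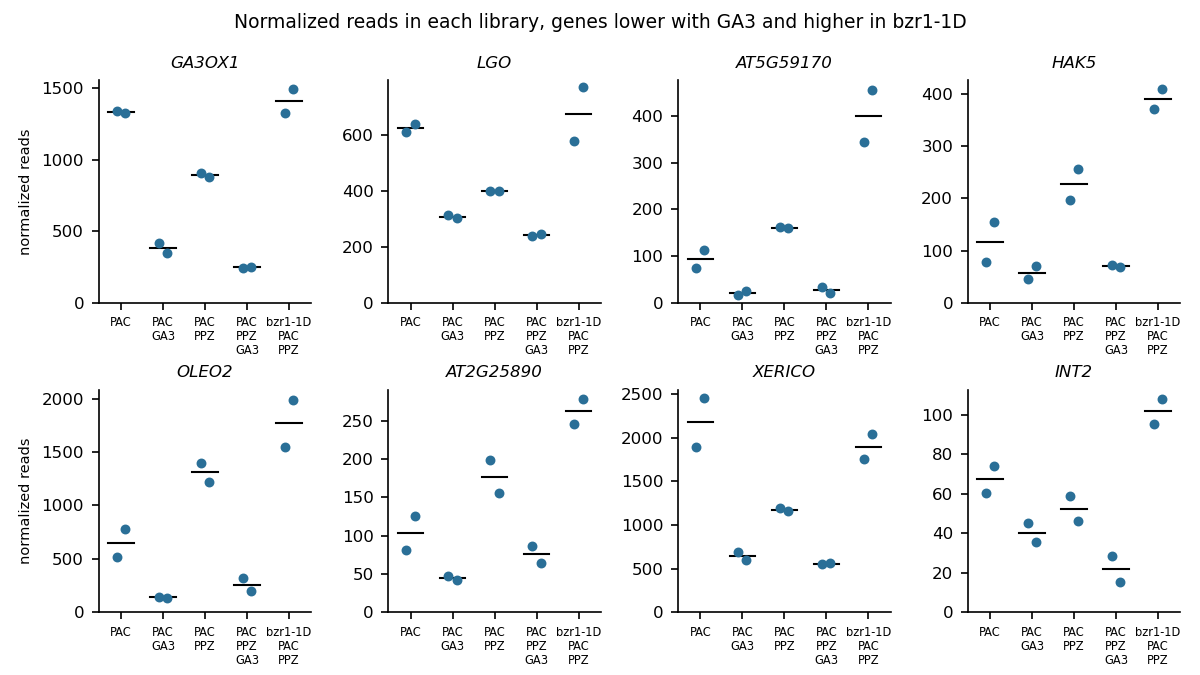
Normalized reads in each library for 8 genes lower with GA3 and higher in bzr1-1D. Points are libraries, with the deeper one on the left, and bars are the group means deposited by the authors. In each panel both bzr1-1D points lie above both points of wild type on PAC and PPZ, by a smaller margin for the oleosin genes OLEO2 and AT2G25890.

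Seed and embryo genes made up 7 of the 97. With GA3 on PAC their ratios ran from 0.14 to 0.688 and the authors' deposited table called 5 of them lower, and in bzr1-1D the ratios ran from 1.34 to 1.48 and 1 was called higher. Of the 17225 genes, 18.6% were called lower with GA3 on PAC and 18.2% higher in bzr1-1D. OLEO2, which coats seed oil bodies, gave normalized reads of 522 and 782 on PAC, 144 and 135 on PAC with GA3, 1401 and 1219 on PAC and PPZ, 321 and 199.7 on PAC and PPZ with GA3, and 1549 and 1989.7 in bzr1-1D. PER1, a seed peroxiredoxin, gave normalized reads of 485 and 951 on PAC, 163 and 141 on PAC with GA3, 1416 and 1168 on PAC and PPZ, 319 and 241 on PAC and PPZ with GA3, and 1619 and 2018 in bzr1-1D. TIP3;1, a water channel of the seed protein storage vacuole, gave normalized reads of 385 and 628 on PAC, 70.7 and 71 on PAC with GA3, 930.1 and 792 on PAC and PPZ, 203 and 99.8 on PAC and PPZ with GA3, and 1112 and 1439 in bzr1-1D. The GA3 libraries were far below their mock libraries in each of these, whereas the lower bzr1-1D library exceeded the higher wild-type library on PAC and PPZ by little, with ratios of 1.35, 1.41 and 1.48.

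The second oleosin gene AT2G25890, which overlaps a gene on the opposite strand, had 0.43, 0.427 and 1.48, and AT5G44310, of the late embryogenesis abundant family, 0.244, 0.275 and 1.34. ABI3, the seed transcription factor known to bind the RY motif, had 0.603, 0.526 and 1.34, with overlapping libraries on PAC. SOM, a repressor of germination in darkness, had 0.688, 0.56 and 1.43 and was the only 1 of the 7 that the authors' deposited tables called higher in bzr1-1D. None of the 7 was called in all 3 tables.

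The wider seed reserve list was not mainly higher in bzr1-1D. Of 21 seed reserve genes on the list with means of at least 20, 16 were below 1 with GA3 on PAC and 18 with GA3 on PAC and PPZ, with medians of 0.227 and 0.280. In bzr1-1D 13 of the 21 were below 1 and 8 above, with a median of 0.861, and the authors' deposited table called 1 higher and 3 lower. Of the 17225 genes, 18.2% and 18.6% were called so. The summed seed markers given above were lower in bzr1-1D than in wild type on PAC and PPZ, as was the mean of CRU3. The GA3 ratios of the seed genes moved with those sums, and the part of seed tissue in them was not tested.

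RY matches before the start in this group are shown for TIP3;1 and the oleosin genes, in the same form as above, with the motif in capitals on either strand.
OLEO2, chr5:16174869-16174908, minus strand: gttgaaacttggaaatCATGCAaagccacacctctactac
AT2G25890, chr2:11037213-11037252, plus strand: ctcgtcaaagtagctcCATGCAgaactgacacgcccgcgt
TIP3;1, chr1:27521811-27521850, plus strand: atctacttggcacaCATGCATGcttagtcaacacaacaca
In TIP3;1 the 8 capitals hold 2 overlapping matches, 1 on each strand. OLEO2 has a second match farther upstream. In the 250 bases before the start the motif was in 17 of the 97 genes and 13 of the 95, against 7.16% of all promoters searched. Most of the 17 had other roles, GPT2, MIOX2 and AZI1 among them. The other seed and embryo genes of this group held no match there.

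Several of the first 15 genes of this direction have only an annotated family. AT1G14930, of the polyketide cyclase and lipid transport family, gave normalized reads of 212 and 452 on PAC, 149.7 and 183 on PAC with GA3, 619 and 634 on PAC and PPZ, 334 and 302 on PAC and PPZ with GA3, and 1279.8 and 1689.6 in bzr1-1D. AT5G50335, uncharacterized, gave normalized reads of 447 and 702 on PAC, 175 and 213 on PAC with GA3, 295 and 325 on PAC and PPZ, 122 and 152 on PAC and PPZ with GA3, and 647 and 569 in bzr1-1D. In the first, bzr1-1D was the highest of all groups, at 4.48 times wild type on PAC, and in the second it was level with wild type on PAC, at 1.06. AT5G58660, a 2-oxoglutarate-dependent oxygenase, gave normalized reads of 280.1 and 252 on PAC, 121 and 109 on PAC with GA3, 242 and 223 on PAC and PPZ, 137 and 128 on PAC and PPZ with GA3, and 545 and 518 in bzr1-1D. DEG14, of the trypsin and PDZ domain family, gave normalized reads of 40.5 and 31.8 on PAC, 26.6 and 15 on PAC with GA3, 46.9 and 38.1 on PAC and PPZ, 24.6 and 22.9 on PAC and PPZ with GA3, and 113 and 115 in bzr1-1D. AT5G43180, a putative transmembrane protein, gave normalized reads of 52.2 and 60.002 on PAC, 32.1 and 34.2 on PAC with GA3, 66.5 and 97.4 on PAC and PPZ, 39.7 and 40.6 on PAC and PPZ with GA3, and 167 and 167 in bzr1-1D. All 3 had bzr1-1D libraries above every wild-type library, with ratios of 2.28, 2.69 and 2.03.

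AT5G55410, of the lipid transfer family, gave normalized reads of 91.9 and 235 on PAC, 72.5 and 76.5 on PAC with GA3, 274 and 222 on PAC and PPZ, 136 and 128 on PAC and PPZ with GA3, and 402 and 452 in bzr1-1D, with uneven libraries on PAC. LTP2, of the same family, had group means of 40876 on PAC, 29062 with GA3, 58701 on PAC and PPZ, 31642 with GA3 and 89994 in bzr1-1D, and its reads could not be resolved by library. AT4G09760, of the protein kinase superfamily, gave normalized reads of 168 and 161 on PAC, 79 and 97 on PAC with GA3, 176 and 173 on PAC and PPZ, 103 and 95.7 on PAC and PPZ with GA3, and 278 and 325 in bzr1-1D. AT1G77200, an ERF-type transcription factor, gave normalized reads of 116 and 88.2 on PAC, 62.4 and 43.7 on PAC with GA3, 111 and 86.8 on PAC and PPZ, 61.2 and 43.7 on PAC and PPZ with GA3, and 167 and 194 in bzr1-1D. In both of these genes each bzr1-1D library was above every wild-type library. AZI1, a lipid transfer-like protein of systemic immunity, had bzr1-1D and GA3 ratios of 3.08, 0.428 and 0.757.

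Transcription factors made up 11 of the 97 genes besides ABI3, and 3 of them were called in all 3 tables, as were 31 of the 97. WRKY27 had ratios of 0.611, 0.658 and 1.48, NAC047 0.534, 0.66 and 1.42, RAP2.1 0.625, 0.756 and 1.79, and MYB31 0.764, 0.465 and 1.85. Of 3 glycosyltransferases, UGT76E2 and UGT72B3 had bzr1-1D ratios of 1.7 and 2.06, with GA3 ratios of 0.693 and 0.557, and 0.429 and 0.759. The peroxidase gene PRXCB had 0.75, 0.708 and 1.88. The related membrane-associated kinase regulators MAKR3 and MAKR4 went opposite ways: MAKR3 had 1.66, 1.47 and 0.595, and MAKR4 0.687, 0.723 and 3.49. The other 46 of the 97 genes were of other or unknown role.

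Of 51 lists of pathways and families, 32 held none of the 192 genes, and 33 of the 192 genes stood in at least 1 list and 159 in none. At the threshold, the genes just inside were AT5G43830 and AT4G16807, each with a bzr1-1D ratio of 0.77 after rounding, and AT5G57790, with a GA3 ratio of 1.3 on PAC and PPZ, and just outside were AT3G03130 and AT3G48490, with bzr1-1D ratios of 0.77 and 0.773, and AT4G35160, with a GA3 ratio of 1.3. In the other direction AT1G17970, UMAMIT6 and AT5G53990 were just inside, with GA3 ratios of 0.77, 0.769 and 0.768, and SBP3 and MAF5 just outside, with 0.77 and 0.772, as was STRS1, with a bzr1-1D ratio of 1.29. The condition on PPZ kept out 5 and 7 further genes with the same pattern. Those higher with GA3 were ADS1, OCT3, MLP34, BT5 and EXT10, and the others were AT1G12845, BAS1, AIF1, AT4G27300, GA20OX2, IAMT1 and APK4. BAS1, which inactivates brassinosteroids, had ratios of 0.559, 0.451 and 2.23, and 0.307 for PPZ.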

How the data were processed

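RNA sequencing libraries were barcoded and aligned with TopHat, and DESeq was run, per the submitters' processing notes; for tool versions, build, annotation, counting and strandedness the sources used here give nothing. The 3 deposited tables hold, per the file headers, a normalized mean signal for each of 2 groups, their ratio (fold change), and the authors' DESeq p-value and adjusted p-value. Each deposited group mean is an average of 2 whole-number read counts divided by size factors, so the whole reads of both libraries and their size factors were recovered from the values for 99.6% to 100% of genes above 0 in a group; nothing ties a recovered library to a particular sample or repeat, and libraries are called deeper and shallower. Rows that name no gene held 8.61% to 10.7% (aligned to several places), 1.47% to 1.58% (no feature) and 1.34% to 1.47% (ambiguous) of each column, and were left out of the tests.

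Ratios of deposited means applied the rule. Changes on the log2 scale, with their errors, were fitted by limma-voom (limma 3.58.1, R 4.3.3) on the recovered reads of the 4 libraries of a comparison, over all genes with a mean of at least 10, and the procedure was tested on simulated data. Since the labels state no counts, limma-voom replaces a count test on deposited counts. The genes, lists, roles and markers were chosen with earlier results of these data known. In each direction genes were ranked by the smallest of their 3 absolute log2 ratios; the first 15, every gene on a list and the genes at the threshold are named, and further genes were named for their role after their values were seen. Alternatives were stricter thresholds, other minimum means, no condition on PPZ, a pseudocount, recomputed size factors, required calls in the authors' DESeq tables, other fits, a shorter promoter window and each library left out. Precision is limited by 2 libraries a group.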

Additional observations from a re-analysis of the deposited data

How the results depend on the processing

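The rule found 22 and 28 genes in place of 95 and 97 with ratios of at least 1.5-fold in all 3 comparisons, and 60 and 70 with a minimum mean of 50. With an adjusted DESeq p under 0.05 required in all 3 of the authors' deposited tables it found 50 and 31. Leaving out each library in turn gave 86 to 99 genes higher with GA3 and 75 to 111 genes lower with GA3; 40 and 36 of the 95 and 97 genes were kept in every one of these 10 choices. The other changes to the rule gave 88 to 118 and 84 to 116 genes. Median log2 changes of the genes higher with GA3 ranged, with a library left out, from 0.63 to 0.69 and from 0.62 to 0.68 for GA3, and from -0.67 to -0.60 for bzr1-1D; for the genes lower with GA3 they ranged from -0.91 to -0.68, from -0.73 to -0.70 and from 0.65 to 0.75. Of the genes lower with GA3, 82 were called lower with GA3 on PAC and PPZ by limma-voom, against 54 in the authors' deposited table. The share of all genes that limma-voom called is not given here, and the rule used this contrast, so nothing is read from that count. The auxin response element was in 10.5% of the promoters of genes higher with GA3 in the 250 bases before the start alone, against 17.9% in the longer window. The direction of CYP94B3 with GA3 on PAC reversed, to a log2 change of 0.00800, without the shallower library on PAC. The cause of these shifts was not tested. Of single-gene log2 changes recomputed, 843 moved by less than their standard error, 200 by more and 1 reversed. No paired analysis was possible because nothing in the deposited tables ties a recovered library to a replicate number. With 2 libraries a group, genes such as WEE1 and DEG14 rest on few reads.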
